A study of Arabidopsis thaliana with 12 samples.

Results

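The difference of chitin responses between genotypes asks, gene by gene, whether Arabidopsis thaliana seedlings of the mapkkk5-1 line (written mapkkk5) responded to chitin by another amount than the wild type Col-0 (written Col). It is the log2 change from mock to chitin in mapkkk5 minus the log2 change from mock to chitin in Col, so that a negative value means a higher chitin-to-mock ratio in Col. All 20994 genes that passed an expression filter were tested, of 32678 genes in the count table. RNA was sequenced from whole seedlings in 4 groups of 3 libraries: mapkkk5 with chitin for 3 h, mapkkk5 with mock treatment, Col with chitin for 3 h and Col with mock treatment. All seedlings were 8 days old, were grown in MGRL medium with sucrose and stood in liquid medium for 3 h before treatment. The dose of chitin is stated in mM in the design text and in µM in the treatment protocol, with the same figure of 40. The design text speaks of 3 independent experiments, and replicate number n of each group was taken as experiment n and fitted as a block. The mutant is represented by 1 line, and the sources used here do not say how its allele was made.

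Chitin is a polymer of fungal cell walls whose fragments plants perceive as a sign of infection. In Arabidopsis the LysM receptor kinases CERK1 and LYK5 bind chitin, and the cytoplasmic kinase PBL27, a substrate of CERK1, phosphorylates MAPKKK5, which passes the signal through the kinases MKK4 and MKK5 to the MAP kinases MPK3 and MPK6. Transcription factors downstream, WRKY proteins among them, switch on genes for the defence hormones salicylic acid and ethylene, for the antimicrobial indole compound camalexin and for cell wall and membrane proteins.

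Total counts were 15455836 to 20179428 reads per library, and levels are given as CPM, counts scaled to a library of 1000000 reads. A count of 0 allows up to 3 reads, at most 0.200 CPM, by counting error alone. Markers of both seedling organs were present in every library, with summed levels of 15123 to 24995 CPM for 14 shoot photosynthesis genes and 1431 to 5407 CPM for 11 root genes. Root markers summed to 1431 to 2116 CPM in mapkkk5 chitin, 3113 to 4861 CPM in mapkkk5 mock, 1561 to 2908 CPM in Col chitin and 3656 to 5407 CPM in Col mock libraries, and their median difference of responses was -0.11, or -0.23 without mapkkk5 chitin library 1, -0.18 without mapkkk5 mock library 1, -0.025 without Col mock library 1, -0.20 without Col mock library 2 and -0.22 without experiment 1. Chitin lowered 5 of these 11 root genes in each genotype, against 22.7% of all genes in mapkkk5 and 23.8% in Col. It raised 1 in mapkkk5 and 2 in Col, against 24.5% and 26.5% of all genes. Their median log2 response was -0.05 in both genotypes, so the lower sums after chitin were not those of a typical member. In RNA from whole seedlings, fewer cells of a type and less RNA per cell cannot be told apart. Seed storage transcripts, which germinated seedlings have mostly lost, stood at 23.1 and 88.9 CPM in mapkkk5 chitin libraries 2 and 3, at 34.2 and 84.5 CPM in mapkkk5 mock libraries 1 and 3 and at 24.8 CPM in Col mock library 1, and at 1.17 CPM or less in the other 7 libraries. Their difference of responses was positive in all 7 tested members, with a median of 5.98, and passed the test in none. This median was -0.052 without Col mock library 1, 1.05 without experiment 1 and 0.34 with voom, and the medians by experiment were -0.49, 3.12 and 0.0028. Their part in other results was not tested beyond a fit with their level as a covariate, given with the limits.

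Of the 20994 genes, 2 passed the test of the difference (edgeR's quasi-likelihood test, adjusted p below 0.05), or 0.00953% of those tested. Both had a smaller increase in mapkkk5 than in Col, and no gene (0%) passed with a larger one. At an unadjusted p below 0.05 there were 653 genes (3.11%), 390 with a negative difference (1.86%) and 263 with a positive one (1.25%). A threshold of 0.05 would by itself let through a larger share if no gene differed. A gene named below for an unadjusted p is therefore not a call. A fitted difference of -1 or below was found in 143 genes (0.681%) and of 1 or above in 195 (0.929%). The chitin response itself was broad in each genotype, with 9896 genes called in mapkkk5 (47.1%) and 10558 in Col (50.3%); these comparisons share their libraries with the difference. Between genotypes 96 genes were called after chitin (0.457%), 11 higher (0.0524%) and 85 lower (0.405%) in mapkkk5, and 7 after mock (0.0333%), 2 higher and 5 lower (0.0238%). The 95% interval of the difference lay wholly within -1 and 1 on the log2 scale for 17587 genes (83.8%), so for these genes the data bound the difference to less than 2-fold in either direction, gene by gene. For the other genes the interval did not exclude a difference of 2-fold or more. Among them the intervals of the 2 called genes lay wholly below -1.

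**Figure D1:**
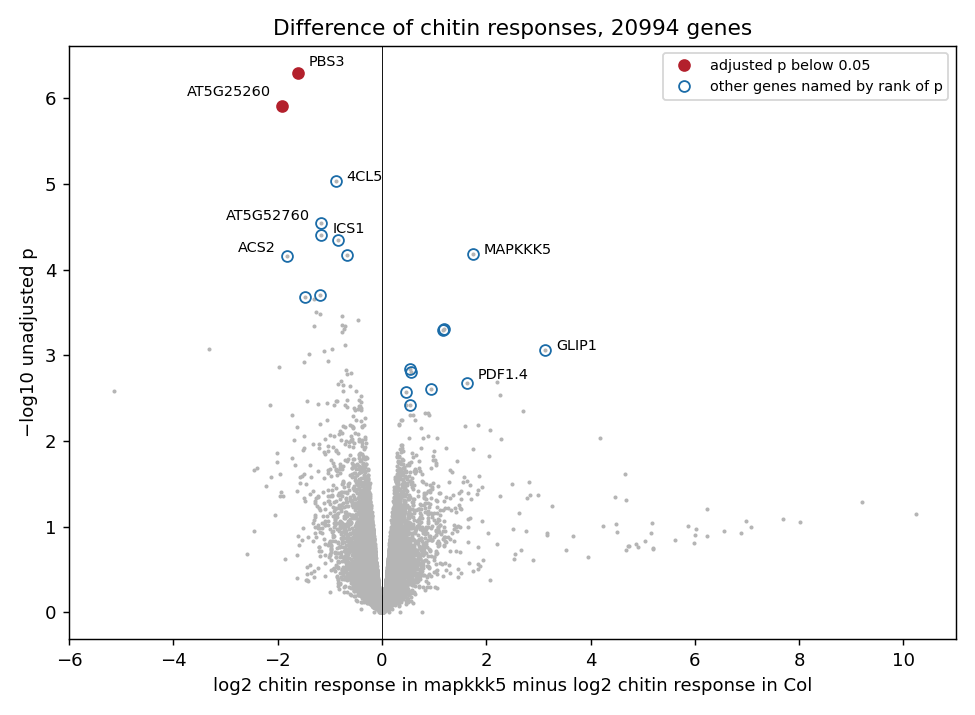
Log2 difference of chitin responses, mapkkk5 minus Col, on the x axis against -log10 of the unadjusted p on the y axis for the 20994 genes tested. The 2 filled red points, PBS3 at -1.61 and AT5G25260 at -1.92, are the genes with an adjusted p below 0.05, and open circles are the other genes of smallest p in each direction.

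The gene with the smallest p was PBS3 (AT5G13320, chr5:4267456-4271064, plus strand), which encodes an amido-transferase of the GH3 family that joins isochorismate to glutamate in salicylic acid synthesis. PBS3 stood at 31.0, 42.6 and 37.0 CPM in mapkkk5 chitin libraries, 6.85, 6.87 and 7.12 CPM in mapkkk5 mock libraries, 90.9, 147 and 98.9 CPM in Col chitin libraries and 6.78, 7.01 and 6.78 CPM in Col mock libraries. The genotypes overlapped after mock, and after chitin every mapkkk5 library was below every Col library. Chitin raised PBS3 5.27-fold in mapkkk5 (2.40 ± 0.13 on the log2 scale, SE) and 16.1-fold in Col (4.01 ± 0.13). The difference was -1.61 ± 0.18 (95% interval -2.0 to -1.21, edgeR adjusted p = 0.0106), and in experiments 1, 2 and 3 alone it was -1.56, -1.76 and -1.48. The call rests on the block: without it the adjusted p was 0.168 at the same difference. The difference lay between -1.75 and -1.44 under all 24 alternatives, and the call was also lost without mapkkk5 chitin library 2 (adjusted p = 0.0588), mapkkk5 mock library 1 (0.0955) or all of experiment 1 (0.103).

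The second called gene was AT5G25260 (chr5:8752684-8754522, plus strand), a member of the flotillin family, whose proteins carry an SPFH domain and sit in membrane microdomains that take part in endocytosis. AT5G25260 stood at 28.6, 32.4 and 27.1 CPM in mapkkk5 chitin libraries, 8.96, 8.78 and 7.12 CPM in mapkkk5 mock libraries, 72.2, 113 and 76.4 CPM in Col chitin libraries and 7.0, 4.95 and 7.25 CPM in Col mock libraries. As for PBS3, the genotypes overlapped after mock and were separate after chitin, but the mock levels were less alike. After mock, mapkkk5 minus Col was 0.015 ± 0.15 on the log2 scale for PBS3 and 0.36 ± 0.19 for AT5G25260, and neither passed. Chitin raised AT5G25260 3.53-fold in mapkkk5 (log2 1.82 ± 0.17) and 13.4-fold in Col (3.74 ± 0.17). The difference was -1.92 ± 0.24 (95% interval -2.43 to -1.41, edgeR adjusted p = 0.0130), with -1.68, -2.62 and -1.47 in the 3 experiments. The adjusted p was 0.0899 without the block, 0.0738 without mapkkk5 chitin library 2, 0.126 without mapkkk5 mock library 1, 0.0617 without mapkkk5 mock library 2 and 0.103 without experiment 1.

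The other 2 flotillin genes measured were FLOT1 (AT5G25250), which acts in clathrin-independent endocytosis and begins upstream of AT5G25260 with 1048 bases between them, and AT5G64870. FLOT1 stood at 159, 158 and 200 CPM in mapkkk5 chitin, 24.2, 24.7 and 27.3 CPM in mapkkk5 mock, 203, 235 and 206 CPM in Col chitin and 31.2, 22.9 and 26.9 CPM in Col mock libraries. It rose in both genotypes, by 2.76 ± 0.12 on the log2 scale in mapkkk5 and 2.99 ± 0.12 in Col, and its difference of -0.23 ± 0.17 did not pass (95% interval -0.59 to 0.12). AT5G64870 was low, at 2.07, 3.55 and 4.13 CPM in mapkkk5 chitin, 1.61, 1.42 and 0.999 CPM in mapkkk5 mock, 5.20, 10.8 and 10.7 CPM in Col chitin and 1.2, 1.18 and 1.75 CPM in Col mock libraries. Its groups lay as those of AT5G25260 did, apart after chitin and overlapping after mock, but its difference of -1.44 ± 0.41 did not pass over all genes (edgeR adjusted p = 1). The difference between neighbouring FLOT1 and AT5G25260 was not tested; their 95% intervals do not overlap. The gene sequences of FLOT1 and AT5G25260 were identical at 87.4% of 1780 aligned bases, and those of AT5G64870 at 79.7% and 77.7% against FLOT1 and AT5G25260, so reads that match both copies could have been divided or dropped in the authors' counting.

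The 300 bases before the annotated start of each neighbouring flotillin gene are printed here and were not aligned with each other. They were read from the RefSeq genome of TAIR10.1 on the plus strand, 5′ to 3′, at chr5:8752384-8752683 for AT5G25260 and chr5:8749380-8749679 for FLOT1. Capitals mark matches on either strand to 4 motifs: TTGAC, the core of the W-box that WRKY factors bind; GCCGCC, the GCC-box of ethylene response factors; CACGTG, the G-box; and GAAATTT, a motif bound by CBP60g and SARD1.
AT5G25260: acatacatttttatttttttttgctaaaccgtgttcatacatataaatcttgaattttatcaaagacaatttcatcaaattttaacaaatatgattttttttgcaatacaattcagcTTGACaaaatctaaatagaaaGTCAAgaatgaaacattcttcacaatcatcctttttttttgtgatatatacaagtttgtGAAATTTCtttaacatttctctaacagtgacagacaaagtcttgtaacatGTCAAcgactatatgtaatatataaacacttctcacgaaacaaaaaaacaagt
FLOT1: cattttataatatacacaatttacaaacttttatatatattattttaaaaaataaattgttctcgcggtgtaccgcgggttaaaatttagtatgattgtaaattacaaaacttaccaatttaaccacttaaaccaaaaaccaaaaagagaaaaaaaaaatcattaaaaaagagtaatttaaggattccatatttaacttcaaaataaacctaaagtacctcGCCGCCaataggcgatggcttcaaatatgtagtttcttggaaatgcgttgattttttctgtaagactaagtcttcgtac
The AT5G25260 window held 3 matches to TTGAC, 183 bases before the start on the same strand and 162 and 53 bases before it on the opposite strand, and an overlapping pair of matches to GAAATTT, 1 on each strand. The FLOT1 window held 1 match to GCCGCC and none to the other 3 motifs. Of the windows of 20881 tested genes, 50.8% held TTGAC at least once, 5.27% held it 3 times or more, 15% held GAAATTT and 2.38% held GCCGCC. A match is a description of the letters and not a bound site.

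PBS3 works next to ICS1 (AT1G74710, chr1:28070295-28074177, plus strand), the isochorismate synthase whose product PBS3 uses. ICS1 stood at 48.5, 67.9 and 59.0 CPM in mapkkk5 chitin, 22.9, 21.5 and 19.3 CPM in mapkkk5 mock, 123, 160 and 103 CPM in Col chitin and 24.8, 20.3 and 17.1 CPM in Col mock libraries. It was thus also separate between genotypes after chitin and overlapping after mock. Chitin raised ICS1 2.75-fold in mapkkk5 and 6.15-fold in Col, and the difference of -1.16 ± 0.20 did not pass (edgeR adjusted p = 0.159), though it passed under 5 of 24 alternatives. EDS5, the transporter that carries isochorismate out of the chloroplast, averaged 55.2 CPM in mapkkk5 chitin, 25 CPM in mapkkk5 mock, 91.7 CPM in Col chitin and 25.7 CPM in Col mock libraries, with a difference of -0.71 ± 0.16 (adjusted p = 0.482). By experiment, 1 to 3, the difference of ICS1 was -1.24, -1.32 and -0.98 and that of EDS5 was -0.92, -0.78 and -0.41, so both were negative in each experiment, as PBS3 was.

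The regions before PBS3 (chr5:4267156-4267455) and ICS1 (chr1:28069995-28070294) are shown because the 2 genes of consecutive steps had the smallest p of the salicylic acid list. Strand, source and capitals are as for the flotillin genes.
PBS3: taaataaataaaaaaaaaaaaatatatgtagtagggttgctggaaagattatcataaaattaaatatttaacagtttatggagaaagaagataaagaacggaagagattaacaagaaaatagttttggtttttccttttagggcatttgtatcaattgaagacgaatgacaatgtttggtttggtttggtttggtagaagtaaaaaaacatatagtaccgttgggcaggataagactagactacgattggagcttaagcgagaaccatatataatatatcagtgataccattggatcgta
ICS1: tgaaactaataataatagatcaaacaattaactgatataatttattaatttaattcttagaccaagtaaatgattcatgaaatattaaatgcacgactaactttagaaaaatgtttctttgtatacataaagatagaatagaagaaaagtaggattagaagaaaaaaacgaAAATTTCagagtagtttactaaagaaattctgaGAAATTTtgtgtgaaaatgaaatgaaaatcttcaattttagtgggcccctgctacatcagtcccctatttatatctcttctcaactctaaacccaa
The PBS3 window held none of the 4 motifs. The ICS1 window held GAAATTT once on each strand, as 2.7% of all windows held it at least 2 times, and no TTGAC. Of the 10 genes of smallest p with a negative difference, 6 held TTGAC and 3 held GAAATTT; of the 10 with a positive difference, 7 and 1 did. That these letters are missing from 300 bases says nothing about sites farther away.

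**Figure D2:**
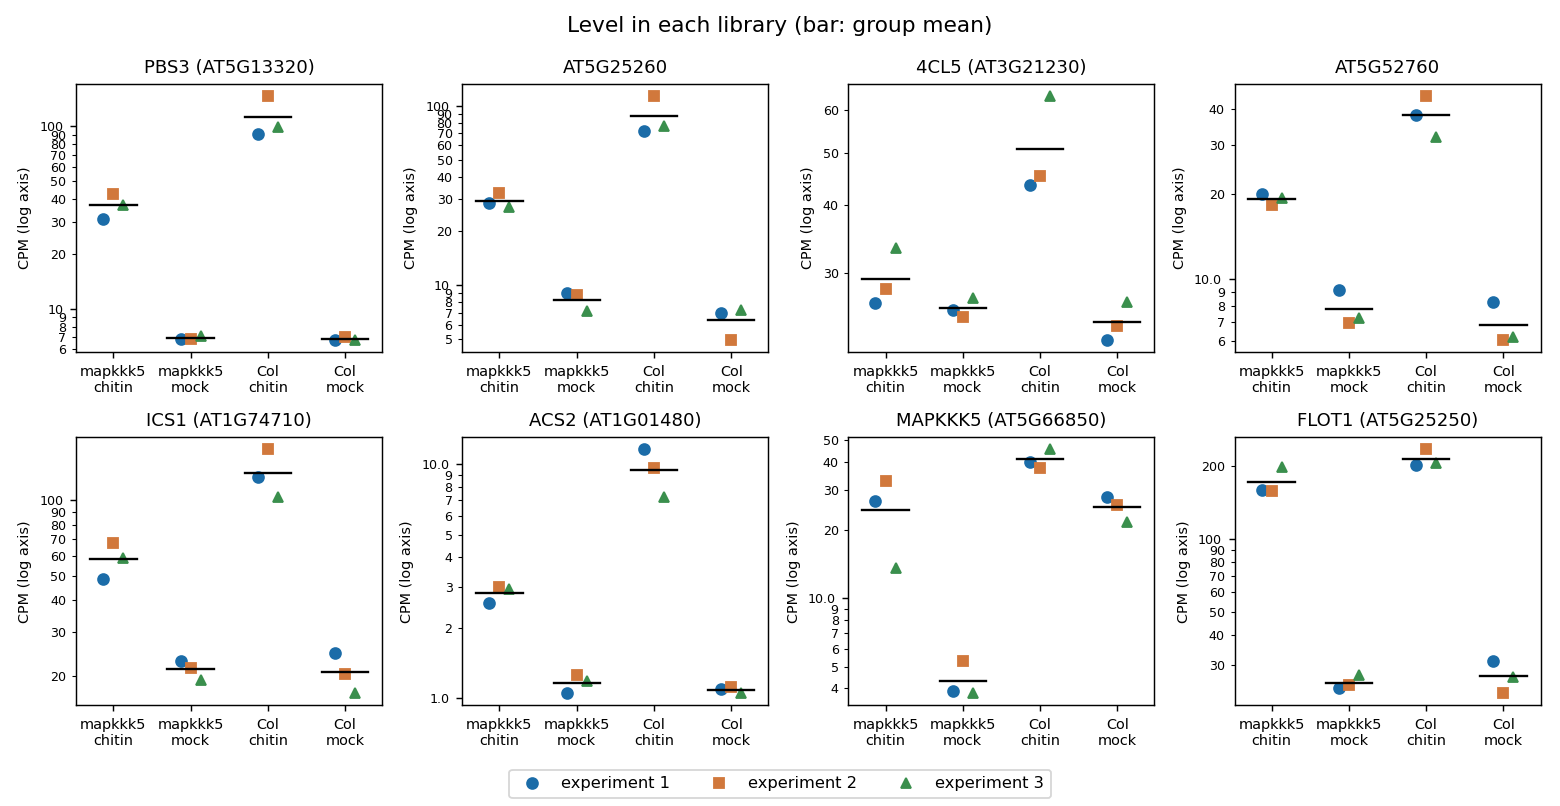
Level in each library in CPM (log axes) for 8 genes, with groups from left to right mapkkk5 chitin, mapkkk5 mock, Col chitin and Col mock, symbols by experiment and bars for group means. PBS3 and AT5G25260 lie at 27.1 to 42.6 CPM in mapkkk5 chitin libraries, all below the 72.2 CPM or more of Col chitin libraries, and all mock libraries lie at 8.96 CPM or below.

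The wider salicylic acid list held 23 genes of synthesis, regulation and response and was made with earlier results of these data known. The list had 22 members tested, 1 of them called (PBS3) against 0.00953% of all genes. Its median difference was -0.13, beside -0.01 over all genes, with 14 of 22 members below 0, where 52.5% of all genes were. At an unadjusted p below 0.05 it held no member with a positive difference, against 1.25% of all genes, and 5 members with a negative one, against 1.86%. These were PBS3, ICS1, EDS5, EDS1 (-0.44 ± 0.13), a lipase-like protein of immune signalling, and CBP60G (-0.57 ± 0.21), a calmodulin-binding transcription factor of ICS1. SARD1, whose protein binds the same motif as CBP60G, was at -0.16 ± 0.13. PAD4, the partner of EDS1, was at -0.18 ± 0.18 and the salicylic acid receptor gene NPR1 at 0.01 ± 0.12. The pathogenesis-related genes PR1, PR2 and PR5, which salicylic acid induces, had differences of 0.21 ± 0.49, 0.46 ± 0.35 and 0.29 ± 0.26 and were negative in experiment 2 and positive in experiments 1 and 3. The members' median was -0.12 and -0.48 in experiments 1 and 2 and 0.06 in experiment 3, and it was -0.0031 over all experiments without Col chitin library 2. In each genotype 21 of the 22 members rose with chitin, against 24.5% of all genes in mapkkk5 and 26.5% in Col. Over the 22 members the median log2 response was 1.45 in mapkkk5 and 1.21 in Col. It was thus higher in mapkkk5, although the median difference was negative.

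Among genes outside the gene lists, 4CL5 (AT3G21230), a 4-coumarate:CoA ligase that feeds phenylpropanoid synthesis, came nearest to the threshold. 4CL5 stood at 26.3, 27.9 and 33.4 CPM in mapkkk5 chitin, 25.6, 24.9 and 26.9 CPM in mapkkk5 mock, 43.6, 45.3 and 63.8 CPM in Col chitin and 22.5, 23.9 and 26.4 CPM in Col mock libraries. Every Col chitin library was above all 9 others. Chitin raised 4CL5 in Col by 1.06 ± 0.09 on the log2 scale, and the change of 0.17 ± 0.09 in mapkkk5 did not pass (edgeR adjusted p = 0.153). The difference was -0.89 ± 0.13 (95% interval -1.17 to -0.61, adjusted p = 0.0639) and lay between -0.96 and -0.76 in the 3 experiments.

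The remaining genes among the 10 of smallest p with a negative difference had adjusted p-values of 0.151 to 0.382 and did not pass. ACS2, which makes the ethylene precursor, had 2.55, 2.99 and 2.93 CPM in mapkkk5 chitin, 1.06, 1.25 and 1.19 CPM in mapkkk5 mock, 11.5, 9.60 and 7.25 CPM in Col chitin and 1.09, 1.12 and 1.05 CPM in Col mock libraries. It was low in all libraries, with 18 to 184 reads, and clearly apart between genotypes after chitin. Its difference of -1.83 ± 0.33 (edgeR adjusted p = 0.162) was near that of AT5G25260, with a wider interval (-2.53 to -1.12). AT2G45220, of the pectin methylesterase inhibitor superfamily, averaged 63.1 ± 8.79 CPM in mapkkk5 chitin, 18.8 ± 8.72 CPM in mapkkk5 mock, 186 ± 9.16 CPM in Col chitin and 20.2 ± 9.67 CPM in Col mock libraries (SD, n = 3), a difference of -1.47 ± 0.30. UGT85A1, a glycosyltransferase, averaged 128 ± 22.8 CPM in mapkkk5 chitin, 80.2 ± 17.8 CPM in mapkkk5 mock, 214 ± 1.71 CPM in Col chitin and 75 ± 10.5 CPM in Col mock libraries, a difference of -0.85 ± 0.15. The cytochrome P450 gene CYP81D8 (-1.19 ± 0.24), the copper transport family gene AT5G52760 (-1.17 ± 0.19) and the phosphoglycerate mutase family gene AT3G60420 (-0.67 ± 0.12) complete the 10.

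These 10 genes were picked by smallest p for a negative difference. Chitin raised all 10 in Col, against 26.5% of all genes, and 9 of them in mapkkk5, against 24.5%, 4CL5 being the exception. The 9 rose in both genotypes and by less in mapkkk5. In 9 of 10 the mapkkk5 libraries were all below the Col libraries after chitin, AT3G60420 being the exception, and after mock the genotypes overlapped in all 10. The difference was negative in each experiment in all 10, as it was in 13.3% of all genes. The shares of all genes with such separation or overlap of the genotypes are not given here. Since small p favours genes that differ in every experiment, these counts describe the 10 and support no call.

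DESeq2 called 11 genes, 10 negative and 1 positive. It added to PBS3 and AT5G25260 the genes ICS1, UGT85A1, 4CL5, AT5G52760 and MAPKKK5, and 4 genes that edgeR ranked lower: AT2G32190 (-1.31 ± 0.27), a small cysteine-rich transmembrane protein, AT1G53625 (-1.26 ± 0.27), of unknown function, the cell wall enzyme gene XTH18 (-0.95 ± 0.23) and AT1G66090 (-1.40 ± 0.34), an immune receptor of the TIR-NBS class; these are edgeR's values.

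The targeted gene, MAPKKK5 (AT5G66850, chr5:26695568-26699426, minus strand), had the smallest p among positive differences. MAPKKK5 stood at 26.7, 32.9 and 13.6 CPM in mapkkk5 chitin, 3.90, 5.29 and 3.81 CPM in mapkkk5 mock, 39.9, 37.5 and 45.3 CPM in Col chitin and 28.1, 25.7 and 21.7 CPM in Col mock libraries. It was thus lowest in mapkkk5 mock, and the mutant libraries were below those of Col in either treatment. The genotype difference was -2.54 on the log2 scale after mock (edgeR adjusted p = 0.000308) and -0.80 after chitin (adjusted p = 0.119). Chitin raised reads of the gene 5.53-fold in mapkkk5 and 1.66-fold in Col. The difference of responses, 1.74 ± 0.31, did not pass over all genes (95% interval 1.07 to 2.40, adjusted p = 0.162). By experiment it was 2.24, 2.07 and 0.75, and it passed without mapkkk5 chitin library 3 (2.05, adjusted p = 0.00400), without Col chitin library 3 (0.0230) or without experiment 3 (0.00544). Counts per gene do not show which part of the gene the reads came from. None of the 10 nearest tested genes passed. The adjoining genes AT5G66840 and AT5G66860 were at -0.13 ± 0.42 and 0.11 ± 0.11, and AT5G66830, which lies beyond AT5G66840, was at 2.26 ± 0.63 (adjusted p = 1).

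No other positive difference had an adjusted p below 0.482. AT3G50160, a putative membrane protein with a DUF247 domain, had 5.63, 6.60 and 9.07 CPM in mapkkk5 chitin, 0.668, 1.04 and 1.44 CPM in mapkkk5 mock, 4.83, 6.60 and 7.86 CPM in Col chitin and 1.59, 2.48 and 2.40 CPM in Col mock libraries. The genotypes overlapped after chitin, and after mock mapkkk5 was below Col; the difference was 1.2 ± 0.27. BETA-VPE, a cysteine protease that processes vacuolar proteins, had 4.20, 6.32 and 7.63 CPM in mapkkk5 chitin, 6.18, 5.67 and 7.31 CPM in mapkkk5 mock, 2.07, 3.80 and 3.70 CPM in Col chitin and 7.11, 6.90 and 8.71 CPM in Col mock libraries. Here Col chitin libraries were the low ones: chitin lowered the gene in Col by -1.27 ± 0.19 on the log2 scale, the change in mapkkk5 of -0.10 ± 0.18 did not pass, and the difference was 1.16 ± 0.26.

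The 10 genes of smallest p with a positive difference took 2 forms. They were chosen on that difference, and none passed the test. In 5 of the 10 the mapkkk5 libraries were below Col after mock and, apart from MAPKKK5, overlapped with them after chitin, a share not given here for all genes. Besides MAPKKK5 and AT3G50160 these were GLIP1, a secreted lipase with a role in resistance to a necrotrophic fungus, the defensin-like PDF1.4 (1.63 ± 0.43) and ARD3 (0.95 ± 0.26), an enzyme of methionine salvage. GLIP1 had 0, 2 and 0 reads in mapkkk5 mock libraries, under the limit of 3 reads, and 4, 13 and 5 reads in Col mock libraries, against 214 to 322 and 228 to 277 reads after chitin, so its fitted difference of 3.13 ± 0.74 depends on the prior count and is no bound. In the other 5 genes chitin lowered the level in Col, as it did in 23.8% of all genes: BETA-VPE, the cell death regulator gene MYB30 (0.53 ± 0.13), the cellulose synthase-like gene CSLB03 (0.56 ± 0.14), the lipid transfer family gene AT2G45180 (0.45 ± 0.12) and AT3G19850 (0.55 ± 0.16), of the NPH3 family. Of these 5, chitin also lowered AT2G45180 and AT3G19850 in mapkkk5 and raised CSLB03 there, by 0.27 ± 0.10 on the log2 scale.

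**Figure D3:**
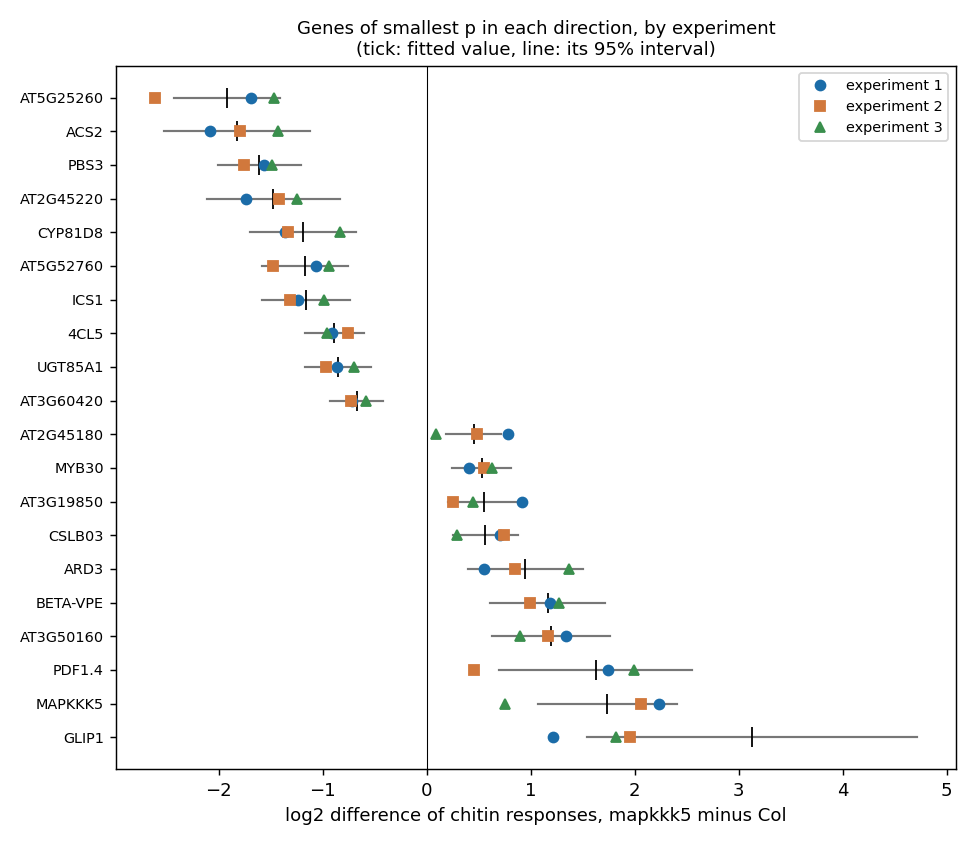
Log2 difference of chitin responses, mapkkk5 minus Col, on the x axis for the 10 genes of smallest p in each direction, with symbols for each experiment, ticks for the fitted value and lines for its 95% interval. All 20 genes keep their sign in the 3 experiments, with PBS3 between -1.76 and -1.48, AT5G25260 between -2.62 and -1.47 and MAPKKK5 between 0.75 and 2.24.

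Across the chitin-responsive genes the difference was small and not the same in each experiment. Over 1496 genes that rose at least 2-fold on average of both genotypes, the median response was 1.59 in mapkkk5 and 1.72 in Col on the log2 scale. The median difference was -0.09 (quartiles -0.31 and 0.13), and 915 of these genes (61.2%) were below 0, beside 52.5% of all genes. At an unadjusted p below 0.05 there were 149 negative and 37 positive differences among them, beside 1.86% and 1.25% of all genes. The median was -0.19 and -0.30 in experiments 1 and 2 and 0.16 in experiment 3, so an exact two-sided sign-flip test over the 3 experiments gave p = 0.5, where 0.25 is the smallest it can give. Without experiment 2 the median was 0.01. The interval of the difference lay within -1 and 1 for 893 of these genes (59.7%).

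The median did not grow with the size of the response. It was -0.10 over 942 genes raised by 1 to 2 log2 units, -0.13 over 297 genes raised by 2 to 3, -0.02 over 137 genes raised by 3 to 4 and 0.33 over 120 genes raised by 4 or more. In this last set the medians by experiment were -0.19, -0.02 and 0.69, positive in experiment 3 alone, and the median SE of a gene was 0.67. Its median without experiment 3 was not tested. Over 591 genes lowered at least 2-fold on average the median was 0.08, with 240 (40.6%) below 0. By experiment the median was 0.20, 0.01 and 0.00. An exact two-sided sign-flip test gave p = 0.25, the smallest it can give over 3 experiments, so it could not pass. Of the 390 genes with a negative difference at an unadjusted p below 0.05, 283 rose and 37 fell in the average response, and of the 263 with a positive one 61 rose and 127 fell. Of all genes tested, 31.3% rose and 30.2% fell in the average response.

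**Figure D4:**
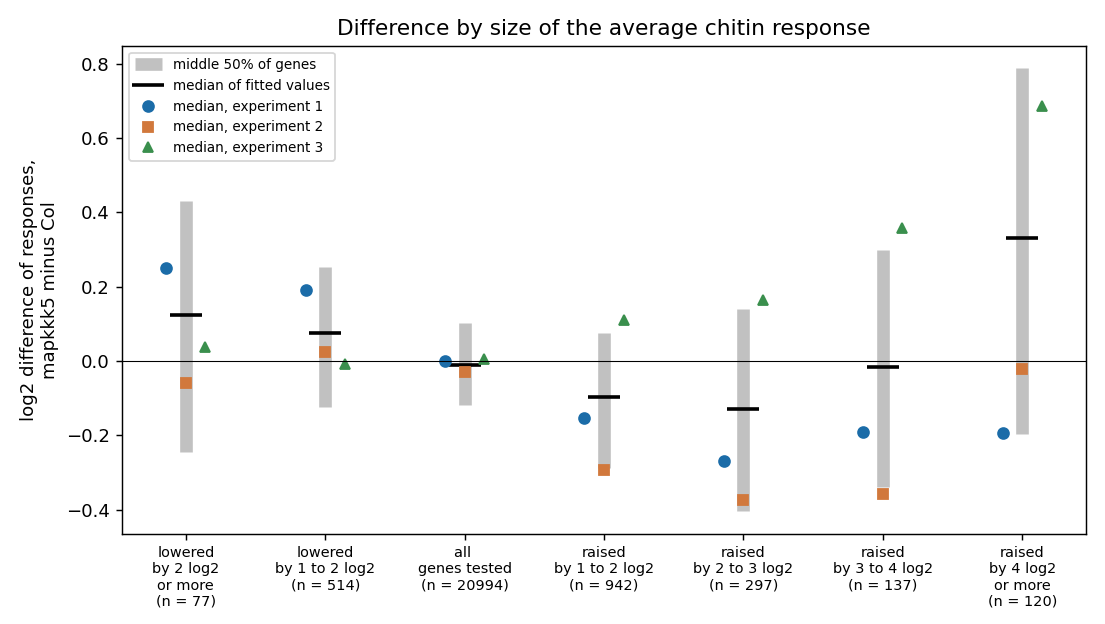
Median log2 difference of chitin responses, mapkkk5 minus Col, for sets of genes by their average chitin response, with grey bars for the middle 50% of genes, black bars for the median of fitted values and symbols for the median in each experiment. Experiment 3 lies above experiments 1 and 2 in each set of raised genes, and reaches 0.69 in the set raised by 4 log2 units or more.

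No gene in the lists of chitin perception and MAP kinase signalling was called, MAPKKK5 included. In the list of 17 chitin receptors and receptor-like cytoplasmic kinases the median was -0.09, with 0 called. At an unadjusted p below 0.05 it held 1 negative and 1 positive member, beside 1.86% and 1.25% of all genes. The receptor genes CERK1 and LYK5 were at -0.16 ± 0.13 and -0.33 ± 0.20 and PBL27 at -0.02 ± 0.13; 15 of the 17 had intervals within -1 and 1. The members with an unadjusted p below 0.05 were the LysM protein gene LYM3 (0.41 ± 0.16) and the receptor kinase gene IOS1 (-0.33 ± 0.15). Among 23 genes of MAP kinase cascades none was called. MKK4 and MKK5 were at -0.15 ± 0.13 and -0.11 ± 0.11, MPK3 and MPK6 at -0.15 ± 0.12 and -0.01 ± 0.12, and MAPKKK3, a related kinase of immune signalling, at -0.02 ± 0.12.

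The cascade gene with the most negative difference relative to its error was MPK11, a MAP kinase activated by bacterial flagellin. MPK11 stood at 10, 15.4 and 17.5 CPM in mapkkk5 chitin, 5.01, 3.55 and 5.5 CPM in mapkkk5 mock, 20.9, 42.0 and 28.8 CPM in Col chitin and 4.65, 5.66 and 4.03 CPM in Col mock libraries. It was apart between genotypes after chitin, and its difference of -1.06 ± 0.32 did not pass (edgeR adjusted p = 1). MEKK1 (-0.31 ± 0.12) and MAPKKK18 (-1.26 ± 0.58) also had a negative difference at an unadjusted p below 0.05. Of the 9 MAP kinase phosphatase genes, which switch these kinases off, none had an unadjusted p below 0.05, and the median was 0.05.

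In the lists of early immune reporters and WRKY factors, the classes through which the cascade acts, no member was called. The 20 early reporters rose in 18 cases in each genotype, against 24.5% of all genes in mapkkk5 and 26.5% in Col, with a median response of 2.18 in mapkkk5 and 2.52 in Col, and their median difference was -0.11. It was -0.27 and -0.46 in experiments 1 and 2 and 0.26 in experiment 3, and 0.05 without experiment 2. The zinc finger gene ZAT12 (-0.52 ± 0.21) and the phosphate-responsive gene PHI-1 (-0.88 ± 0.31) had a negative difference at an unadjusted p below 0.05, and the berberine bridge enzyme gene AT1G26380 a positive one (0.80 ± 0.36). The 33 WRKY genes had a median of -0.10 (-0.0082 without mapkkk5 mock library 1). At an unadjusted p below 0.05 none had a positive difference, against 1.25% of all genes, and 4 had a negative one, against 1.86%. The 4 were WRKY46 (-0.78 ± 0.21), WRKY8 (-0.79 ± 0.35), WRKY50 (-0.68 ± 0.23) and WRKY70 (-0.34 ± 0.14).

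Hormone and antimicrobial pathways other than salicylic acid had medians between -0.20 and 0.04 and no called member. The ethylene list (23 genes) had a median of -0.07 (-0.18 without experiment 3) and held ACS2 and the related ACS7 (-0.70 ± 0.32) with an unadjusted p below 0.05. The jasmonate list (25 genes) had a median of -0.03, or -0.28 without Col mock library 3 and 0.071 without Col chitin library 2. It held 4 negative and 2 positive members of that kind, beside 1.86% and 1.25% of all genes. The negative ones were the lipoxygenase gene LOX4 (-1.21 ± 0.42), the hormone-inactivating CYP94C1 (-0.86 ± 0.33) and CYP94B3 (-0.70 ± 0.32) and the repressor gene JAZ1 (-0.40 ± 0.16); the positive ones were LOX2 (0.50 ± 0.23) and VSP2 (1.53 ± 0.70). The 15 genes of tryptophan and camalexin synthesis (median -0.11, or 0.032 without experiment 2) included ASA1 and TSB2, which supply tryptophan, at -0.34 ± 0.14 and -0.26 ± 0.12. CYP82C2, which makes a cyanogenic relative of camalexin, was at 2.27 ± 1.02, but it had 7, 0 and 1 reads in mapkkk5 mock libraries and 3, 28 and 17 reads in Col mock libraries, and its difference was -1.37, 3.22 and 3.09 in the 3 experiments. In the list of 11 indole glucosinolate genes (median 0.03, or -0.14 without experiment 3) UGT74B1 was at -0.30 ± 0.11. The 4 genes for N-hydroxypipecolic acid, a mobile immune signal, had a median of -0.20 (0.074 without experiment 1), with AT5G52810 at -0.39 ± 0.13 and FMO1, which makes the final product, at -0.24 ± 0.27. Among 9 chitinases (median 0.04, or -0.12 without mapkkk5 chitin library 3), which break down fungal walls, the basic chitinase HCHIB was at 0.51 ± 0.23.

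In the lists of growth and photosynthesis genes no member was called. Of 16 tested genes of brassinosteroid signalling and cell expansion, 3 were below 0, against 52.5% of all genes, and the median was 0.21, with none called. BES1, a transcription factor of the brassinosteroid response, fell with chitin by 0.18 on the log2 scale in mapkkk5 and by 0.51 in Col, a difference of 0.32 ± 0.10. The expansin genes EXPA5 (0.39 ± 0.17) and EXPA11 (0.27 ± 0.11) also had an unadjusted p below 0.05, and the wall enzyme gene XTH22 was at -0.74 ± 0.31. All 14 shoot photosynthesis markers were above 0, between 0.04 and 0.25, where 52.5% of all genes were below 0. None had an unadjusted p below 0.05. Their median was 0.13, and by experiment it was 0.25, 0.08 and 0.06. With chitin 11 of them fell in mapkkk5, where 22.7% of all genes did, and 12 in Col, where 23.8% did. The 7 stomatal lineage markers had a median of 0.01. The 8 reference genes for quantitative PCR were between -0.11 and 0.04.

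**Figure D5:**
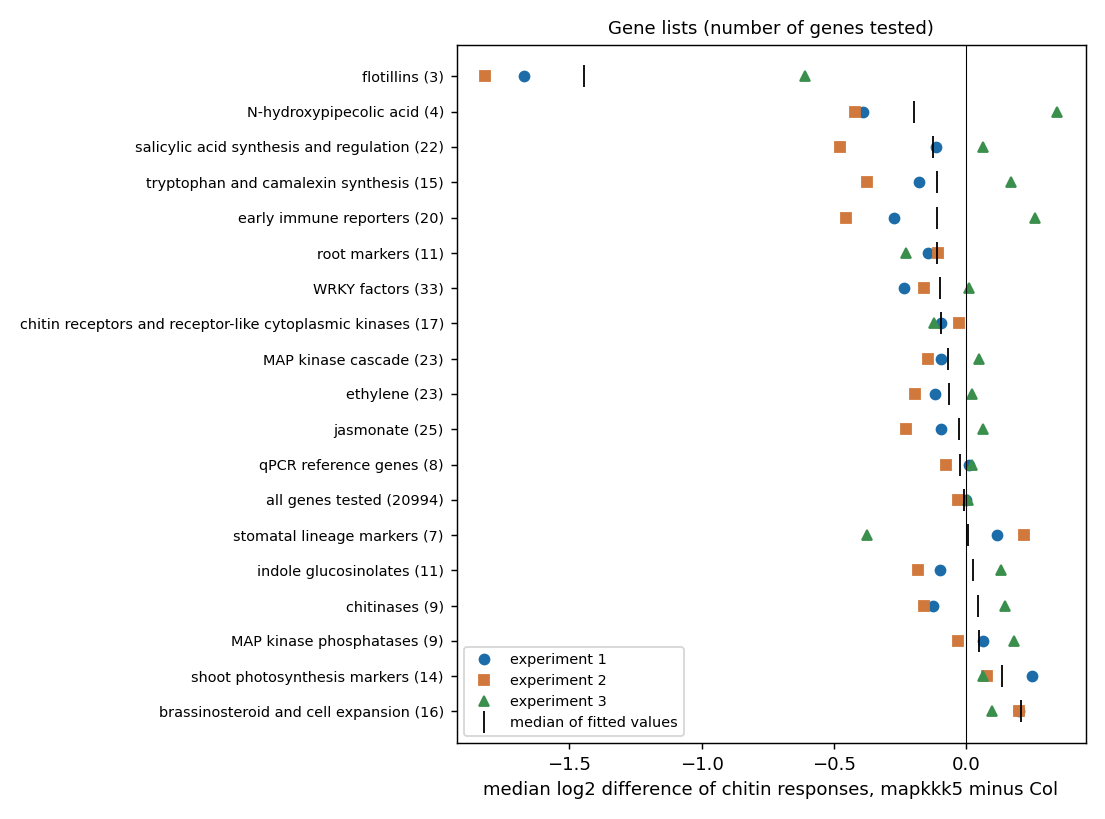
Median log2 difference of chitin responses, mapkkk5 minus Col, on the x axis for gene lists, with the number of genes tested in brackets, symbols for the median in each experiment and ticks for the median of fitted values; the seed storage list, at 5.98, is not drawn. The 3 flotillins stand lowest at -1.44, and the other lists drawn lie between -0.20 and 0.21, with experiment 3 on the positive side in most immune lists.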

How the data were processed

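RNA was sequenced from poly(A)-enriched RNA of whole seedlings in 12 libraries. The authors deposited whole-number read counts per gene, not normalized. The tools cutadapt 1.5, TopHat2 2.0.10, HTSeq 0.6.1, CASAVA 1.8.2 and the build TAIR10 stand in the submitters' processing notes, without settings. No source used here gives the strand or overlap setting, so overlapping, antisense and near-identical genes are uncertain. Of 32678 genes, 7389 had no read. Gene names and positions come from RefSeq TAIR10.1, matched for 31912 identifiers.

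From the counts, edgeR 4.0.16 in R 4.3.3 was used with filterByExpr (20994 genes), TMM scaling (factors 0.971 to 1.03) and a quasi-likelihood fit of the 4 groups with the replicate number as an additive block, leaving 6 residual degrees of freedom. The difference is (mapkkk5 chitin minus mapkkk5 mock) minus (Col chitin minus Col mock). A gene was called at an adjusted p (Benjamini-Hochberg) below 0.05. An SE is the log2 value divided by the square root of F. Levels are CPM on TMM-scaled library sizes. Values by experiment used log2 CPM with a prior count of 2. The script was tested on simulated counts.

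The block follows the design text. Deviations from group means correlated at -0.04 to 0.51 (median 0.30) between same-numbered libraries, over 0.1 in 17 of 18 pairs, and over 0.1 in 1 of 36 pairs of different number. All 12 replicate pairs differed beyond counting noise, with a chi-square of 10.9 to 27.0 for each degree of freedom, and none were merged; the p-values rest on 3 experiments that are independent only as the labels state.

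The gene lists (19 lists, 281 genes, 277 tested, from general knowledge) and all choices were made with earlier results of these data known. Genes named are those called, the 10 of smallest p in each direction whose mean log2 CPM was 1 or more, the 2 of smallest p per list, MAPKKK5 and the flotillins, and genes called without the block or by DESeq2; other list members are named for their role or for an unadjusted p below 0.05, chosen after their values were seen. Upstream windows of 300 bases were read from TAIR10.1. Alternatives were no block, a chitin response of its own per experiment, DESeq2 1.42.0, limma voom (3.58.1), other scaling and filters, and libraries or experiments left out.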

Additional observations from a re-analysis of the deposited data

Results flagged for a closer look

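The following results were flagged because the chitin response itself differed between mapkkk5 and Col in the test of that difference. PBS3, the amido-transferase gene of salicylic acid synthesis, had a log2 difference of -1.61, and the flotillin family gene AT5G25260 had -1.92. Both were negative in each of the 3 experiments.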

How the results depend on the processing

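The count of 2 called genes changed with the processing. It was 0 with no replicate block (275 genes had an unadjusted p below 0.05), 8 with a replicate block and a chitin response of its own in each experiment, 11 with DESeq2, 7 with no expression filter and 5 with seed storage transcripts as a covariate, chosen after seeing the data; voom, the other scalings and a filter of 1 CPM gave 2. Leaving out libraries or whole experiments gave 0 to 7: 0 without mapkkk5 chitin 2, mapkkk5 mock 1 or experiment 1, 1 without mapkkk5 mock 2, 5 without Col chitin 3 and 7 without experiment 3. The cause was not tested. PBS3 was called in 20 and AT5G25260 in 19 of 24 alternatives, at -1.75 to -1.44 and -2.15 to -1.58. Over named genes, 1350 values kept direction and call, 28 (10 genes) passed only under the alternative and 9 (PBS3 and AT5G25260) no longer passed. Direction reversed once each over the left-out libraries and experiments for 5 genes that were not called: CRA1 (-0.052 to 5.56, below 0 without Col mock 1), UBC21 (-0.10 to 0.0077, above 0 without Col mock 2), FMO1 (-0.52 to 0.091, above 0 without experiment 1), AT1G67820 (-0.50 to 0.014) and FLOT1 (-0.40 to 0.0010), the last pair above 0 without experiment 2. Of the 19 list medians, 10 changed sign when a library or experiment was left out: early reporters (-0.24 to 0.050), tryptophan and camalexin (-0.26 to 0.032), indole glucosinolates (-0.14 to 0.094), N-hydroxypipecolic acid (-0.43 to 0.074), jasmonate (-0.28 to 0.071), chitinases (-0.12 to 0.11), MAP kinase phosphatases (-0.028 to 0.12), stomatal (-0.12 to 0.16), reference (-0.078 to 0.016) and seed storage genes (-0.052 to 7.44). The other 9 kept theirs, with salicylic acid at -0.26 to -0.0031, ethylene at -0.18 to -0.013, WRKY at -0.16 to -0.0082 and root markers at -0.23 to -0.025. The median of genes raised at least 2-fold lay at -0.23 to 0.014. Depth limits low genes such as GLIP1 and CYP82C2, at 0 to 28 reads in mock libraries.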
